A study of Mus musculus with 40 samples.

Results

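The genes described here are 10 components of the T cell receptor complex and its partners: Cd3d, Cd3e, Cd3g, Cd4, Cd8a, Cd8b1, Foxp3, Lck, Cd2 and Camk4. They were taken by gene symbol from the deposited fold change table. They are 10 of 29411 gene symbols on the array, measured by 13 of 40628 probes.

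The arrays measured RNA of subcutaneous stromal vascular cells (SVCs) of C57BL/6J mice, which entered the study at 3 to 4 weeks of age. The mice ate a low-fat diet with 10% of calories from fat (LFC), a high-fat diet with added sucrose and 60% of calories from fat (HFC), or HFC with 5, 20 or 75 µg of the plant formulation Kal-1 (HF5, HF20 and HF75). Each diet had 30 mice, of which 5 were killed every 3 weeks. The series text speaks of 3 biological replicates, while the files hold 1 array per diet and time point, and how many mice gave RNA to each array is unknown. There were 11 LFC and 11 HFC arrays at days 1, 6, 10 and 14 and at weeks 0, 3, 6, 9, 12, 15 and 18, with 1 array per diet at each. HF5 had 6 arrays at weeks 3 to 18, and HF20 and HF75 had 5 each at weeks 3 to 15. Each diet has a single array per time point, so the values of a time point carry no error of their own, and p-values measure the spread between arrays.

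A T cell recognises antigen through a receptor whose variable chains carry no signalling domain of their own. The invariant CD3 chains pass the signal into the cell, and the coreceptors CD4 and CD8 bring the kinase Lck to the receptor. T cells reside in fat tissue beside macrophages and other immune cells, and lymph nodes lie within the subcutaneous fat pads of mice.

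Levels are log2 intensities relative to the 75th percentile of the same array. This percentile ranged from 7.81 to 2161 intensity units over the arrays. A value below the lowest level that the scanner software marked as well above background on its array was raised to that level, which makes it an upper limit. Other values without the mark were kept as measured and are called dim as well. In bulk RNA, fewer T cells and less RNA per T cell cannot be told apart.

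Before the results, 3 LFC arrays need naming. On the LFC array of week 3, only 17.2% of probes were well above background, its 75th percentile intensity was 7.81, and the level given to dim probes was -0.02. Of the 10 genes, only Cd3d and Camk4 were well above background there by their main probes. The LFC array of day 14 had 9104 spots marked as outliers, and its only Cd3e spot was dropped. The median rank correlations of these arrays with the others were 0.509 and 0.465, against 0.834 to 0.944 for the other 36. The LFC array of week 18 had the lowest of those, 0.834, and its fibroblast markers had a mean level of -5.44, against 2.64 to 5.37 on the other 35 arrays. Its adipocyte and endothelial markers were also the lowest, at -4.97 and -4.73, while its B cell and macrophage markers were at 0.04 and 1.21. Its fibroblast and endothelial values go against a stromal vascular label, and the cause was not tested. The only Cd2 spot of the HF75 array of week 15 was dropped.

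The CD3 chains come first, as they make up the signalling part of the receptor. Cd3d was well above background on all 38 arrays. Its level ran from -3.81 through a median of 0.70 to 3.51 on the 11 LFC arrays, and from -3.72 through 1.23 to 3.38 on the 11 HFC arrays. On the 6 HF5 arrays it ran from -1.28 through 0.48 to 4.74. It was 2.66, -2.01, -1.16, -3.03 and -0.83 on HF20 at weeks 3, 6, 9, 12 and 15, and 3.36, -1.68, 4.26, 2.57 and -1.54 on HF75 at the same weeks. The diets overlapped throughout, and every diet held both high and low arrays. The highest arrays were HF5 of week 3 and HF75 of week 9, and the lowest were LFC of week 12 and HFC of day 1.

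Cd3g, which pairs with the epsilon chain in the complex, was well above background on 37 of 38 arrays. It ran from -4.78 through -0.85 to 2.68, lowest on LFC of week 12 and highest on HF5 of week 3. Cd3e, the chain found in each CD3 dimer, was well above background on 34 of 37 arrays and varied less. Over the 36 arrays other than LFC of week 3 and day 14, the SD was 2.41 for Cd3d, 2.14 for Cd3g and 1.29 for Cd3e.

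Of the coreceptors, Cd8a and Cd8b1 encode the chains of CD8, which binds MHC class I. Cd8a ran from -5.36 through -1.27 to 2.81 and was well above background on 35 of 38 arrays. Cd8b1 ran from -6.75 through -2.44 to 1.09, on 33 of 38. HF5 of week 3 was the highest array for both. Cd4, the coreceptor for MHC class II that some myeloid cells also carry, had the smallest spread, with an SD of 0.93 over the 36 arrays. It ran from -6.45 through -4.59 to -3.09 on them, and was well above background on 33 of 38 arrays.

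Lck, the kinase that phosphorylates the CD3 chains, ran from -4.50 through -0.11 to 3.79 and was well above background on 37 of 38 arrays. Cd2, an adhesion receptor of T and NK cells, ran from -5.18 through -1.24 to 2.54 on 37 arrays. Camk4, a calcium-dependent kinase downstream of the receptor, ran from -6.30 through -2.01 to 2.90, highest on LFC of week 3. Over the 36 arrays other than LFC of week 3 and day 14, its highest level was 1.93, on HF75 of week 3. Foxp3, the transcription factor of regulatory T cells, was well above background on 17 of 38 arrays only. Those were 4 of 11 LFC, 6 of 11 HFC, 2 of 6 HF5, 2 of 5 HF20 and 3 of 5 HF75 arrays. At week 6 it was dim on all 5 arrays.

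**Figure D1:**
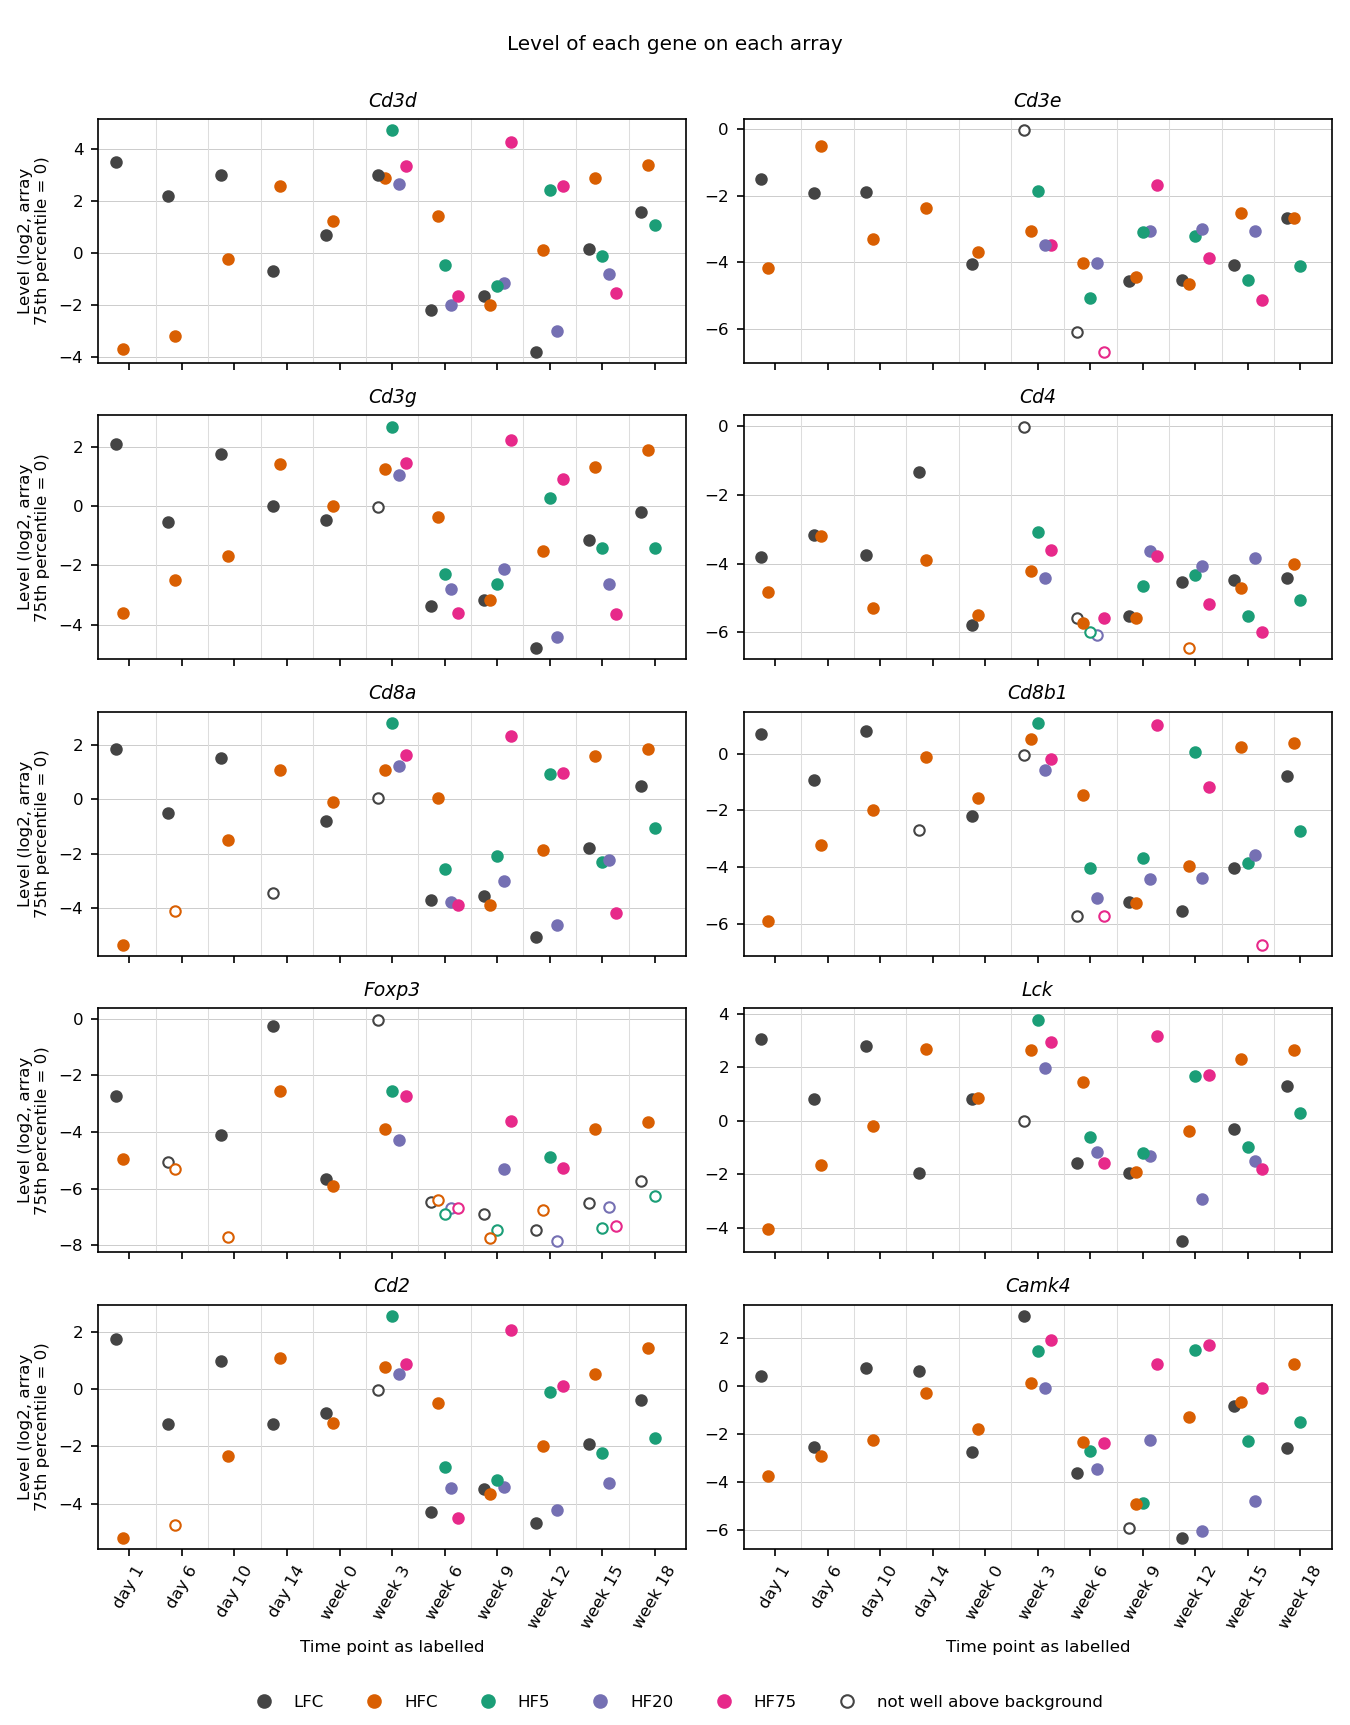
Level of each of the 10 genes on each array (log2, array 75th percentile set to 0) by time point, with diets in colour and open circles for values not well above background. At week 3 Cd3d lay between 2.66 and 4.74 on all 5 arrays, and at week 9 the HF75 array stood at 4.26 with the other 4 between -2.03 and -1.16.

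Cd3d, Cd3g, Cd8a, Cd8b1, Lck and Cd2 moved closely together over the arrays. Their 15 pairwise Pearson correlations lay between 0.926 and 0.985 over 36 arrays (35 with Cd2), given as a description. Cd3d had r = 0.830 with Camk4 (Spearman's rho 0.842), r = 0.771 with Foxp3 (rho 0.777), r = 0.480 with Cd3e (rho 0.565) and r = 0.392 with Cd4 (rho 0.454). Without the HF5 array of week 3 and the LFC array of week 12, which lay farthest from the median of Cd3d, these were 0.797, 0.735, 0.430 and 0.363. Cd3e went more with Cd4 (r = 0.798, rho 0.830) than with Cd3d. Time points, slides and scan days are shared among the arrays, and no scan day held more than 5 arrays, so no correlation within a scan day was computed.

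The 3 Cd8a probes are printed by their first 30 bases, because they let the same gene be read at separate stretches. Each probe had 60 bases.
Cd8a probe 1: ttaggtatgtgtctttagtatagcatgctt
Cd8a probe 2: cctgaaggaactaagagtcacccatggtcc
Cd8a probe 3: tctcaccctgaacaagttcagcaaggaaaa
Probe 1 is the one used throughout. Over the 36 arrays, probe 2 followed it with r = 0.986 and probe 3 with r = 0.840. Probe 3 was well above background on 27 of 38 arrays. The other Camk4 probe followed its main probe with r = 0.795 and was well above background on 32 of 38.

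HFC was compared with LFC over 11 time point pairs to ask whether high-fat feeding altered these genes. The pairs went both ways. The median HFC minus LFC difference over the genes for days 1, 6, 10 and 14 was -6.16, -2.13, -3.00 and 2.30 (the last over 9 genes), and for week 0 it was 0.42. For weeks 3, 6, 9, 12, 15 and 18 it was 0.23, 3.03, -0.05, 2.95, 2.56 and 1.58. All 10 genes were lower on HFC at days 1 and 10, and all 10 were higher at week 18. The LFC arrays named above enter the values of day 14, week 3 and week 18. The pairs of day 6 and weeks 0, 3 and 9 share a slide, and the other pairs do not. Only the arrays of day 1 were scanned on different days, so diet and scan day cannot be told apart there.

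**Figure D2:**
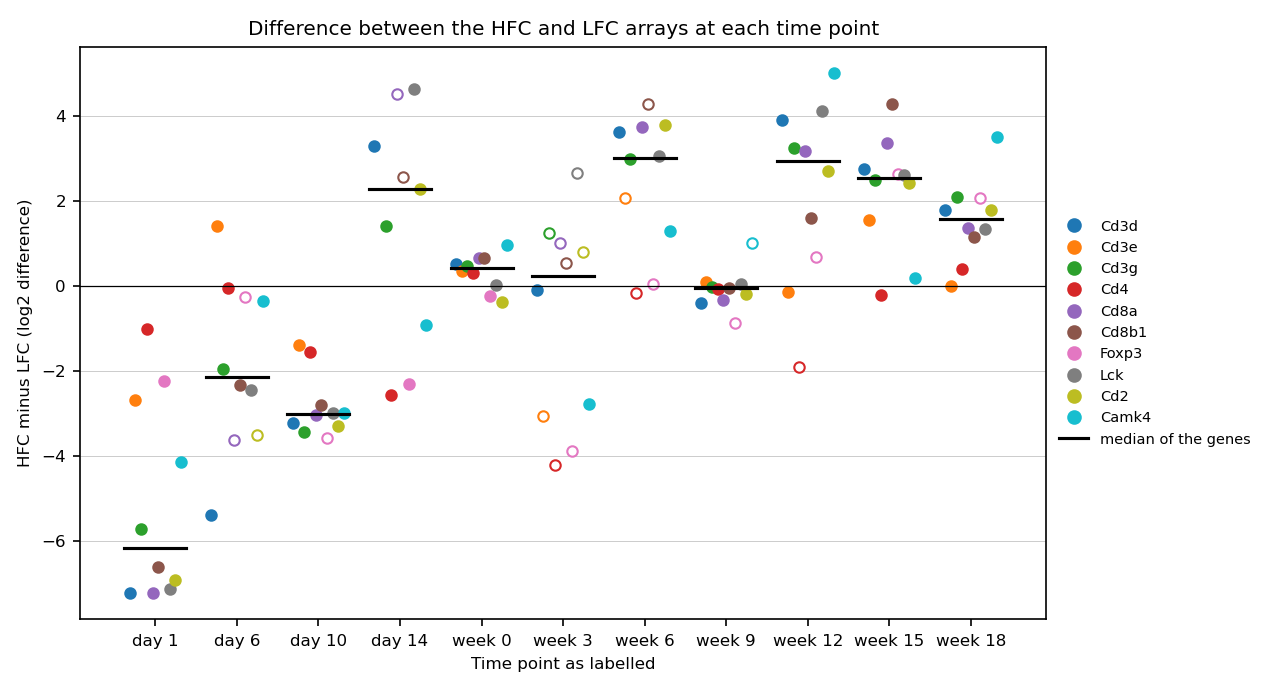
HFC minus LFC log2 difference of each gene at each time point, with the median of the genes as a black line and open circles where at least 1 array of the pair was not well above background. The median was -6.16 at day 1 and between 1.58 and 3.03 at weeks 6, 12, 15 and 18.

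With limma, 0 of the 10 genes passed an adjusted p of 0.05 between HFC and LFC, and 0% of the 29215 probes tested did (0 probes). At an unadjusted p under 0.05 there were 820 probes (2.81%) and 1 of the 10 genes. That gene was Cd4, with a log2 difference of -1.003 (SE 0.42, adjusted p = 0.941, lower in 9 of 11 pairs). Without the pairs of week 3 and day 14, Cd4 stood at -0.47 (SE 0.28), and 0 of the 9 genes tested were under 0.05 unadjusted. The methods' kind of test, run over time points because each has a single array per diet, also called 0 genes and 0 probes. Cd3d had -0.03 (SE 0.98), higher on HFC in 6 of 11 pairs, and its sign turned under other processing.

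The late time points (weeks 3 to 18) and the early ones (days 1 to 14 and week 0) were then set against each other. The HFC minus LFC difference was larger late than early for 9 of 10 genes, with a median of 3.73 over the genes against -0.50 over all probes. The exception was Cd4 at -0.05, which took a positive sign under normexp, quantile normalization and without the floor. Cd3d had 4.34 (SE 1.65), Cd2 4.24 (SE 1.35) and Cd3g 3.86 (SE 1.16), each with an adjusted p of 0.808. With limma 0 of 10 genes and 0% of 29215 probes were called, while 7 of 10 genes and 1240 probes (4.24%) had an unadjusted p under 0.05. The 7 were Cd3d, Cd3g, Cd8a, Cd8b1, Lck, Cd2 and Camk4. Without the pairs of week 3 and day 14 the median was 5.02 and 0 genes were called, and without week 18 it was 3.84 with 5 of 10 under 0.05 unadjusted. After normexp correction, 7 of 10 genes were called beside 14.7% of all probes, with medians of 2.94 and 0.69. Without day 1, whose arrays were scanned on different days, the median was 2.43, with 2 of 10 genes under 0.05 unadjusted. In the same comparison the median was 3.73 over B cell markers (5 of 10 under 0.05 unadjusted), 3.47 over lymph node stroma (4 of 7) and 2.84 over NK and cytotoxic markers (4 of 9), and their part in it was not tested.

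The mean of LFC and HFC was compared late against early as well. All 10 genes had negative differences, with a median of -0.57 against 0.01 over all probes. After quantile normalization 5 of 10 were positive. With limma, 0 of 10 genes and 0% of 29215 probes were called, and 0 genes and 758 probes had an unadjusted p under 0.05. Without the LFC arrays of week 3 and day 14 the median was -0.69 and 1 gene was under 0.05 unadjusted, and without week 18 the median was -0.79.

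The Kal-1 diets were each compared with HFC at the time points they share, to ask what the formulation did on top of the high-fat diet. The 3 comparisons share HFC arrays, so they are not independent of each other. Against HFC, HF5 had medians over the 10 genes of 1.33, -1.92, 0.73, 2.08, -2.90 and -2.52 at weeks 3, 6, 9, 12, 15 and 18. At each of these weeks all 10 genes had the same sign. HF20 had medians of -0.25, -2.54, 0.96, -2.39 and -3.79 at weeks 3 to 15, and HF75 had 0.38, -3.09, 5.56, 2.27 and -4.11, the last over 9 genes. HF75 was above HFC for all 10 genes at weeks 9 and 12.

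For HF5, 0 of 10 genes and 0% of 29200 probes were called by limma, and 0 genes and 1507 probes (5.16%) had an unadjusted p under 0.05. The differences ran from -0.70 to 0.35, with 3 of 6 pairs higher for each gene. For HF20, 9 genes were tested, since Foxp3 did not pass the filter on dim probes. None was called by limma, nor was any of the 30831 probes (0%), while 3 of 9 genes and 3649 probes (11.8%) had an unadjusted p under 0.05. These were Cd3d at -1.94 (SE 0.76), Lck at -1.81 (SE 0.64) and Cd2 at -1.80 (SE 0.64), each with an adjusted p of 0.406 and lower in 4 of 5 pairs. Cd3e and Cd4 had positive differences of 0.42 and 0.93, and both were negative after normexp correction. When a single week was left out, between 0 and 7 genes had an unadjusted p under 0.05. For HF20 the median was -1.61 over NK and cytotoxic markers (5 of 9 under 0.05 unadjusted) and -1.34 over B cell markers (0 of 9). It was -0.99 over lymph node stroma (3 of 7) and 1.77 over adipocyte markers (2 of 8). The part of these cell types in the differences was not tested.

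For HF75, 0 of 10 genes were called by limma beside 1.01% of 28910 probes, of which 0.809% were higher and 0.204% lower. Camk4 had the largest difference among the genes, 2.21 (SE 0.80, adjusted p = 0.269, higher in 4 of 5 pairs). It was the 1 gene of the 10 with an unadjusted p under 0.05, beside 4208 probes (14.6%). The HF75 array of week 9 stood far above the other 4 of its week for Cd3d, Cd3g, Cd8a, Cd8b1, Lck and Cd2, and was scanned on another day than they were. So was the HF75 array of week 6, and to the digits kept their 75th percentile intensities are whole numbers (441 and 585). Without week 9, the median over the genes went from 0.20 to -1.17 and Camk4 to 1.32 (SE 0.52).

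Over weeks 3 to 15, each of the 5 diets has 1 array a week, which lets diet and week be tested side by side on 25 arrays. The diet term called 0 of 10 genes and 0% of 31369 probes in limma. At an unadjusted p under 0.05 there were 0 genes and 3295 probes. The week term called 2 of 10 genes, Cd2 (adjusted p = 0.0494) and Foxp3, beside 14.7% of 31567 probes. Foxp3 was well above background on 4 of 5 arrays of week 3 and on 0, 2, 2 and 1 of 5 at weeks 6, 9, 12 and 15, so it passed the filter only through the week where it is high, and its calls over weeks support nothing. All 10 genes and 35.1% of probes had an unadjusted p under 0.05. With scan day as a random block it called 0 genes and 325 probes, with slide as the block 1 gene, and without the LFC array of week 3 1 gene. Without all arrays of LFC, HFC, HF5 or HF20 it called 0, and without HF75 it called 6.

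Week 3 stood highest. Cd3d was 2.99, 2.91, 4.74, 2.66 and 3.36 at week 3 on LFC, HFC, HF5, HF20 and HF75, and ran from -3.81 through -0.998 to 4.26 on the 20 arrays of weeks 6 to 15. Cd8a by probe 1 was 1.06, 2.81, 1.22 and 1.64 on HFC, HF5, HF20 and HF75 and not well above background on LFC, where its probe 2 was, against -5.07 through -2.43 to 2.33 later. Lck was 2.64, 3.79, 1.99 and 2.94 on these 4 diets and dim on LFC, against -4.50 through -1.18 to 3.19 later. The week 3 arrays were thus mostly above the 20 arrays of weeks 6 to 15, and of those 20, for Cd3d, Cd8a and Lck only HF75 of week 9 and HFC of week 15 reached into the range of HFC, HF5, HF20 and HF75 at week 3. Outside this balanced set, LFC of days 1 and 10 and HFC of week 18 also lay in it for all 3 genes, with Cd3d at 3.51, 2.99 and 3.38.

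Against the mean of the other weeks, the 9 genes other than Foxp3 rose at week 3, and Foxp3 made it 10 of 10, beside 21.8% of the 31567 probes. None of these 9 passed with scan day as a random block, as given below. Of the probes, 17.4% were higher and 4.33% lower. The log2 differences ran from 1.69 for Cd3e (SE 0.59, adjusted p = 0.0479) to 3.79 for Cd8b1 (SE 0.98, adjusted p = 0.0141). Cd3d had 3.73 (SE 0.91, adjusted p = 0.0109). The median was 3.19 over the 9 genes, 3.34 with Foxp3 and 0.48 over all probes. The signs held under each scaling, with medians over the 10 genes of 2.43 against 0.81 over all probes after normexp correction and 3.06 against -0.21 after quantile normalization. Quantile normalization left 8 of 10 genes past the threshold, without Cd3g and Cd4. On LFC of week 3, 8 of the 10 genes were dim by their main probes, and Cd3e, Cd3g, Cd4, Cd8b1, Foxp3, Lck and Cd2 were raised to -0.02. For Cd3e and Cd4 this upper limit lies far above the other 4 arrays of week 3, which ran from -3.48 to -1.86 and from -4.43 to -3.09.

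The count at week 3 rests on few arrays. Without the LFC array of week 3, 7 of 10 genes passed (Foxp3 among them) beside 11.7% of all probes, and Cd3e (0.92, adjusted p = 0.241), Cd4 (1.23, adjusted p = 0.0586) and Camk4 (2.97, adjusted p = 0.0659) did not. Without any LFC array 2 genes passed, without HF5 1 gene, and without HF20 4 genes. These 3 counts are over all 10 genes, so they can hold Foxp3. With scan day as a random block, chosen after seeing the data, none of the 9 genes other than Foxp3 passed, beside 1.71% of probes. The differences stayed near their size, with 3.67 for Cd3d (adjusted p = 0.0685) and a median of 3.31 over the 10 genes. No scan day holds arrays of more than 1 week, so week and processing cannot be told apart.

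Other genes of the T cell programme were higher at week 3 as well. Of the genes of the receptor's zeta chain and proximal signalling, 23 of 25 rose and 0 fell, 19 rose without the LFC array, and 2 rose with scan day as a random block, where the median difference was 3.01 against 3.07. Grap2, an adaptor, had 4.43, Txk, a Tec family kinase, 4.35, and Trat1, a receptor-associated adaptor, 4.24. Of the costimulatory and inhibitory receptors and their adaptors 15 of 16 tested rose (7 without the LFC array, 1 with scan day), among them Btla at 5.11, the adaptor Sh2d1a at 4.38 and Ctla4 at 3.90. Of the transcription factors 10 of 12 rose (8 without it, 1 with scan day), with Lef1 at 3.89, Eomes at 3.85 and Ikzf1 at 3.51. Of the homing and cytokine receptors 10 of 11 rose (9 without it, 2 with scan day), with the chemokine receptors Ccr7 at 4.99 and Ccr6 at 4.49. Without the LFC array of week 3, Ctla4 (adjusted p = 0.0569) and Lef1 (adjusted p = 0.0515) did not pass. With scan day as a random block, Ccr6 passed (adjusted p = 0.0494) and the other 10 named so far beside it did not. Among the thymocyte genes, only Dntt was bright enough to be tested, and it rose by 2.56 (2.22 without the LFC array), which did not pass with scan day (adjusted p = 0.0650).

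Week 6 stood lowest by its median, -1.58 over the genes and -0.23 over all probes. None of the 10 genes was called in limma, against 11.7% of probes, of which 6.53% were higher and 5.18% lower. All 10 had negative differences and 3 of 10 had an unadjusted p under 0.05, beside 8366 probes (26.5%). Cd3e had -1.82 (SE 0.59, adjusted p = 0.0524) and Cd4 -1.40 (SE 0.51, adjusted p = 0.0823). Both passed without the LFC array of week 3, after quantile normalization and without the floor. At week 6 Cd3e was well above background on 3 of 5 arrays and Cd4 on 2 of 5, so part of these values are dim. Of the pathway genes, Themis (-2.80), Cd247 (-1.98) and Csk (-1.13) of the signalling list, the factor Ets1 (-1.54) and the homing receptor S1pr1 (-1.58) fell at week 6.

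At weeks 9, 12 and 15, limma called 0 of 10 genes, beside 0.00317%, 0% and 0.00317% of probes. The 1 probe of week 9 was lower and that of week 15 higher. No gene had an unadjusted p under 0.05 at these weeks, against 5742, 974 and 2070 probes.

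Marker lists named for other cell types moved with these results, and their part in them was not tested. The lymph node stroma list and the NK and cytotoxic list hold genes that T cells also express, such as Ltb and Ccl5. At week 3, 10 of 10 B cell markers rose (10 without the LFC array, 3 with scan day as a random block), of which Pax5 passed the filter only through week 3. So did 4 of 7 measured lymph node stroma markers (3 and 1) and 9 of 9 NK and cytotoxic markers (2 and 1). Of 9 macrophage markers 0 rose and 3 fell (3 fell without the LFC array, 1 with scan day). Of 7 dendritic cell markers 3 rose (1 without it, 0 with scan day), and of 7 fibroblast markers 2 fell (2 and 1). None of the 8 adipocyte, 5 endothelial, 4 epithelial or 4 skeletal muscle markers was called. Of the list of 8 T cell markers, which holds the 3 Cd3 genes, 8 rose (6 without it, 0 with scan day).

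At week 6, 7 of 8 adipocyte markers fell (median log2 difference -2.33), 3 of 4 epithelial markers rose (median 4.71) and 2 of 9 macrophage markers rose. Of the B cell markers 0 of 10 were called, with a median of -2.25 and 8 of 10 under 0.05 unadjusted. Of the T cell markers 1 of 8 fell, of lymph node stroma 1 rose and 1 fell, and of fibroblast markers 1 rose.

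The summed level of the B cell markers was 6.29, 5.82, 5.90 and 5.81 at week 3 on HFC, HF5, HF20 and HF75. It ran from -1.35 through 0.44 to 5.64 on the 20 arrays of weeks 6 to 15. Cd79b was the brightest B cell marker on 27 of 36 arrays, and all 10 B cell markers were well above background on these 4 arrays. The summed level of the lymph node stroma markers was 6.78, 5.76, 6.75 and 7.15 on the same arrays, against 1.39 through 4.24 to 6.65 later, with Ltb the brightest most often (12 of 36). For the NK and cytotoxic markers it was 5.16, 5.30, 4.10 and 4.92, against -0.76 through 1.92 to 5.07 later, with Ccl5 the brightest on 33 of 36. For the B cell markers these week 3 arrays lay above all 20 later ones, and for the other lists they overlapped the upper part of the later range. On HF5 of week 3, Madcam1 and Ncr1 were not well above background.

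Over the 36 arrays, the mean of Cd3d, Cd3e and Cd3g had r = 0.935 (rho 0.924) with the mean of the B cell markers. It had r = 0.823 (rho 0.831) with lymph node stroma and r = 0.865 (rho 0.878) with NK and cytotoxic markers. Both of these lists hold genes that T cells also express. For dendritic cell markers r was 0.607 (rho 0.638), for macrophage markers 0.082 (rho 0.000), for adipocyte markers -0.23 (rho -0.16) and for fibroblast markers -0.07 (rho 0.14). Without the HF5 array of week 3 and the HF75 array of week 9, the farthest from the median, the first 3 were 0.928, 0.837 and 0.860, and dendritic cell markers had 0.660. On HF5 of week 3, where Cd3d was highest, the endothelial markers had a mean of -2.00. That array and LFC of week 18 were the only ones of the 36 with this mean below 0.

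By summed level, the B cell markers had the sign of the 10 genes in most HFC and LFC pairs, but not at weeks 0 and 18. Their summed level on HFC minus LFC was -6.56, -3.15, -3.52 and 2.47 for days 1, 6, 10 and 14, and -0.60 for week 0. It was -0.37, 2.54, -0.95, 2.65, 4.22 and -0.98 at weeks 3, 6, 9, 12, 15 and 18. At week 18, where all 10 T cell receptor and coreceptor genes were higher on HFC, the B cell markers were lower.

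**Figure D3:**
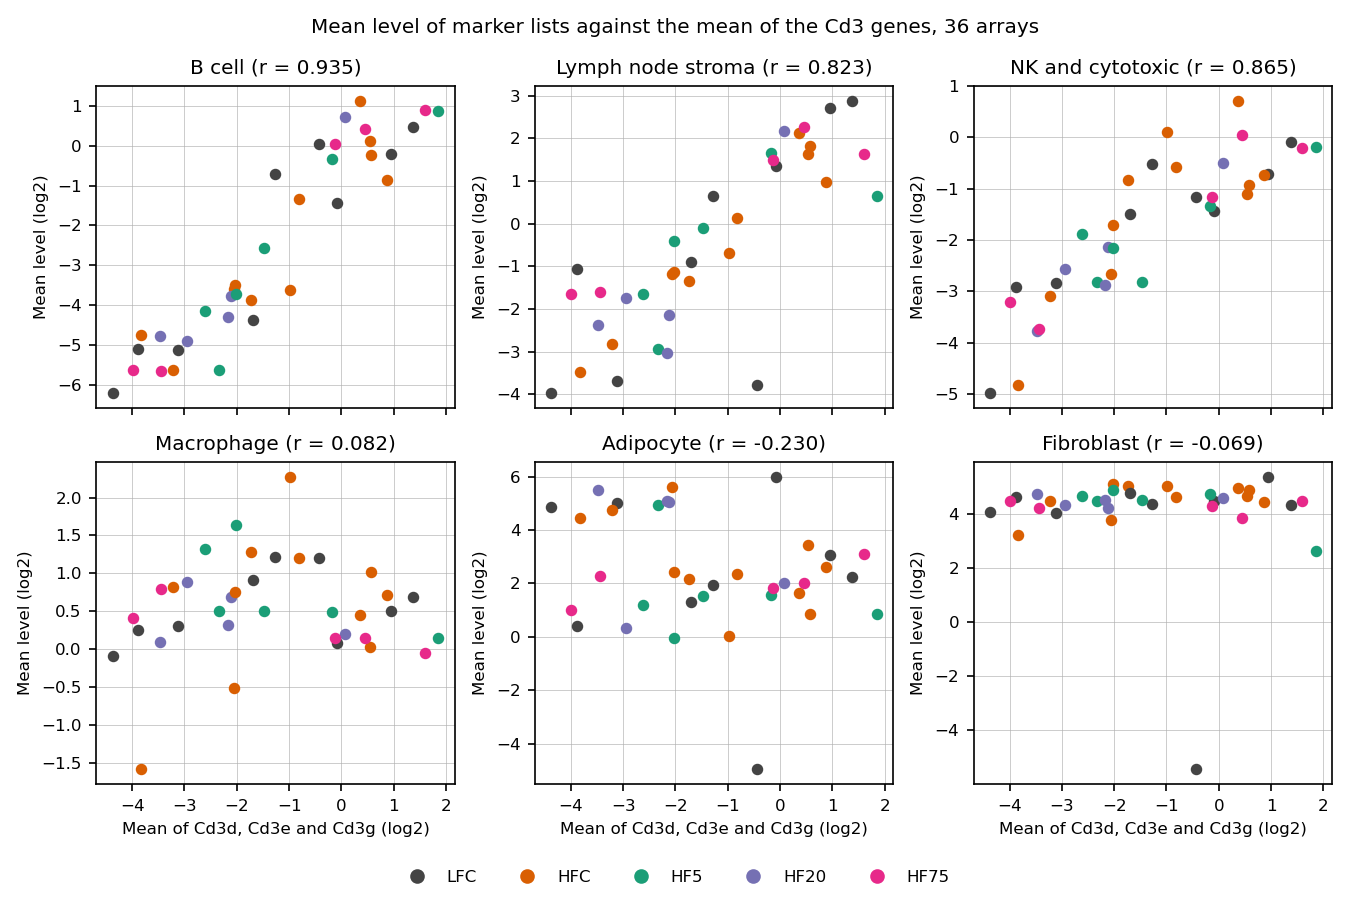
Mean log2 level of each marker list against the mean log2 level of Cd3d, Cd3e and Cd3g, 1 point per array over 36 arrays, coloured by diet, with Pearson's r above each panel. B cell markers followed the Cd3 genes with r = 0.935 and macrophage markers with r = 0.082, and the LFC array of week 18 stands alone at the foot of the fibroblast and adipocyte panels.

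Genes outside the group were ranked by their correlation with the mean of the 3 Cd3 genes over the 25 arrays of weeks 3 to 15, as a description. The 10 highest of 19991 gene symbols were Cd96 (r = 0.985), Tcrb-V13 (0.979), Cd5 (0.978), Sh2d1a (0.974), Traf3ip3 (0.973), Cd6 (0.972), Zap70 (0.972), Crtam (0.970), Gm11346 (0.969) and Rasgrp1 (0.969). Tcrb-V13 names a variable segment of the receptor's beta chain, Cd5 and Cd6 are surface receptors that modulate its signal, and Zap70 is the kinase that binds phosphorylated CD3 chains. Without the LFC array of week 3, their r lay between 0.967 and 0.983, and Zap70, Crtam, Gm11346 and Rasgrp1 were no longer among the 10 highest. The first was then a transcript without a gene name (r = 0.984).

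In the RefSeq gene table, Cd3g and Cd3d are neighbours, as are Cd3d and Cd3e, and Cd8b1 and Cd8a. The RefSeq promoter table (GRCm38.p6) matched 6 of the 10 genes: Cd3d, Cd3e, Cd3g, Cd8a, Lck and Foxp3. It had no entry for Cd4, Cd8b1, Cd2 and Camk4. The 250 bases before the start of the 3 Cd3 genes are printed because these neighbours share a locus while Cd3e moved less closely with the others. Capitals mark matches, on either strand, to short core motifs of factors active in T cells: AGGAAG for Ets, CTTTGA for Tcf/Lef, AGATAA for Gata and CAGGTG for E proteins, and TGTGGT for Runx, which had no match in these. The sequences of Cd3g and Cd3e are on the minus strand and are given in the direction of the gene.
Cd3d, chr9:44981536-44981785, plus strand: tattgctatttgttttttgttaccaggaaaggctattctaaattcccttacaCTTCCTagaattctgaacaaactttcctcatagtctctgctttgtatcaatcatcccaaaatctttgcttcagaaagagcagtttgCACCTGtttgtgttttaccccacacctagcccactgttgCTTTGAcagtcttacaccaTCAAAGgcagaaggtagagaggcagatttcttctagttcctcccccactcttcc
Cd3g, chr9:44980432-44980681, minus strand: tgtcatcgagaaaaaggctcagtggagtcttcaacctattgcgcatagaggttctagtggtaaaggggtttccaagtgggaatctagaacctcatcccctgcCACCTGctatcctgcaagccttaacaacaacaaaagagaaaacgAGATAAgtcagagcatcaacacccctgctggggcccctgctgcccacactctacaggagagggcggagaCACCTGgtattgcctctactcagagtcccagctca
Cd3e, chr9:45009612-45009861, minus strand: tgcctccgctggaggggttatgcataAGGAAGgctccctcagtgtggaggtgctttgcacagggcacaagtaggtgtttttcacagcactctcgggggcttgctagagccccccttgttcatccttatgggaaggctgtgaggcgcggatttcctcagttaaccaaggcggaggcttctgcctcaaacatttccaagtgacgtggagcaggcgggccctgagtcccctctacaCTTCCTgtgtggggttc
Cd3d held 2 matches to the Tcf/Lef motif, 1 to Ets and 1 to the E protein motif. Cd3g held 2 E protein matches and 1 Gata match, and Cd3e held 2 Ets matches. The same window of Cd8a held 0 matches to any of the 5. Lck and Foxp3 had 2 entries each. Entry 1 of Lck held 3 Ets matches and 1 Runx match, and entry 2 held 1 Ets and 1 E protein match. Entry 1 of Foxp3 held 0 matches, and entry 2 held 1 Ets and 1 Gata match. Of 32817 windows of 250 bases before a gene start, 29.5% held the Ets motif, 17.2% the E protein motif, 14.0% the Runx motif, 13.8% the Tcf/Lef motif and 9.99% the Gata motif. A match is a run of letters, and binding of a factor was not measured here.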

How the data were processed

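Total RNA of subcutaneous stromal vascular cells was labelled in 1 colour and hybridised to Agilent mouse arrays. The authors deposited scanner intensity values for each spot, in intensity units that per the file headers had background and spatial trends removed array by array, with no step across arrays. The labels name Feature Extraction 9.1 and the file headers 10.5.1.1. Their fold change table, which holds log2 ratios to the LFC array of each time point, gave only gene symbols and probe sequences here. Of 40 arrays, 38 were grouped by their diet and time labels, and 2 week 18 arrays whose title and diet label name different doses were left out.

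Processed intensities of the 43803 non-control spots were taken to log2, and the 75th percentile of each array was subtracted. Spots marked as outliers were dropped and spots of a probe averaged. A probe was well above background where at least 50% of its spots were, and values under the lowest level well above background on the array were raised to it. Where a gene has several probes, the one with the highest mean stands for it.

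Comparisons used limma 3.58.1 in R 4.3.3 over all probes that passed the background mark on 50% or more of either group's arrays (of any week or diet for the tests over weeks 3 to 15), with Benjamini-Hochberg adjustment over all probes tested and a threshold of 0.05. Diets were compared with the time point as a block. Weeks and diets were tested together as additive terms, and late and early phases over 11 time points, 6 late and 5 early. The fit was tested on simulated data. The median spot to background ratio of an array lay between 1.53 and 55.4.

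The members and lists were chosen with earlier results of these data known. The named genes are all 10 members, up to 3 genes per pathway list and direction with the largest differences past the threshold, at most 12 per comparison, and the 10 genes most correlated with the mean of the Cd3 genes over weeks 3 to 15 among probes that passed the background mark on 50% or more of these 25 arrays. Dntt and Cd8a's other probes are given beyond the 12. The pathway lists hold 69 genes in 5 groups: receptor chain and proximal signalling, costimulation and inhibition, transcription factors, homing and cytokine receptors, and thymocyte genes. The marker lists are T cell, B cell, lymph node stroma, NK and cytotoxic, macrophage, dendritic cell, adipocyte, fibroblast, endothelial, epithelial and skeletal muscle. A list's level on an array is the mean of its log2 values, and its summed level is the log2 of their sum. Of the lymph node stroma list 7 of 10 symbols were on the array, and of the macrophage list 9 of 10.

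The alternatives were quantile normalization, normexp correction (offset 50), no filter, no floor, no time point block, pairs that share a slide, day 14 and week 0 averaged, the methods' t-test (there over 3 values per diet and time point, here over time points), the arrays that stand apart left out, each time point or diet left out in turn, slide as a random block, and other probes of a gene. Added after seeing the data were pairs that share a scan day, scan day as a random block for the weeks, and slide as a random block for the diets. The arrays came from 30 slides and 15 scan days. Promoter sequences are from RefSeq.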

Additional observations from a re-analysis of the deposited data

Results flagged for a closer look

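Cd2 on the HF20 array of week 3 stood far above the other 4 HF20 arrays. Its level was 0.52, the next was -3.28 and the lowest was -4.21, so that the gap took up 0.803 of the whole range. Levels were looked at in this way in 31 groups of a gene and a diet with 4 to 10 arrays. Chance gives about 1 in 20 groups. The cause was not tested.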

How the results depend on the processing

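In all, 110 alternative fits were run, and the cause of each change was not tested. No paired analysis was possible by replicate number because the labels number no replicates; the time point blocks pair the arrays.

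HFC against LFC, Cd3d turned from -0.03 to 0.56 with normexp and 0.69 with pairs of 1 scan day, and ran from -0.43 to 0.69 with a time point left out. HF20 against HFC, Cd3e and Cd4 turned to -0.67 and -0.70 with normexp.

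HF75 against HFC called 293 probes: 145 without the filter, 1 without the time point block, 0 with pairs of 1 scan day, and 0 to 207 with a week left out.

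The week term called 2 members: 10 with normexp, 1 without the filter, 1 without the LFC array of week 3, 1 with slide and 0 with scan day as a random block, and 0 to 6 with a diet left out. It called 4644 probes: 20033 with normexp, 7049 without that array, 325 with scan day, and 589 to 4177 with a diet left out.

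Week 3 called 10 members: 1 with scan day, and 1 to 10 with a diet left out. The 1 with scan day was Foxp3, which passed the filter only through week 3. Week 3 called 6872 probes: 20290 with normexp, 3718 without the LFC array, 540 with scan day, and 457 to 7205 with a diet left out.

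Week 6 called 0 members: 2 with quantile normalization, 2 without the floor and 2 without the LFC array of week 3. It called 3696 probes: 6923 without that array, 1290 with scan day, and 1710 to 4741 with a diet left out.

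Week 9 called 1 probe: 5 with normexp, 486 with quantile normalization, 312 without the floor, 1547 without the LFC array of week 3, 0 with scan day, and 0 to 18 with a diet left out. Week 12 called 0, and 0 to 1 with a diet left out. Week 15 called 1: 0 without the filter, 0 without the floor, 5 without the LFC array of week 3, 0 with slide, 0 with scan day, and 0 with any diet left out. The diet term called 0 probes, and 0 to 2 with a week left out.

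The HFC effect late against early called 0 members and 0 probes, and 7 and 4307 with normexp. Cd4 turned from -0.05 to 2.29 with normexp, 1.14 with quantile normalization, 0.14 without the floor and 0.19 without the pairs of week 3 and day 14, and ran from -0.44 to 0.59 with a time point left out. Cd3e ran from -0.035 to 1.32.

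Other probes have mean levels of their own, -3.89 for probe 3 of Cd8a and -4.38 for probe 2 of Camk4, which say nothing about a change of the gene.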

Other observations

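The labels of 2 week 18 arrays disagree on the dose of Kal-1, so these arrays entered no comparison. The array titled 75 µg with a diet label of 20 µg had Cd3d at -0.12, Cd3g at -0.12, Lck at -0.59, Cd8a at -1.55, Cd2 at -1.93, Cd4 at -3.06, Cd8b1 at -3.09 and Camk4 at 0.04. The spots of Cd3e and Foxp3 were dropped there. On that array 96.3% of probes were well above background.

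The array titled 20 µg with a diet label of 75 µg had Cd3d at -0.97, Cd3g at -1.65, Lck at -0.75, Cd8a at -2.26 and Cd2 at -2.08. Cd3e was at -2.66, Cd4 at -4.77, Cd8b1 at -3.10 and Camk4 at -3.09, and Foxp3 was not well above background. On both arrays Cd3d, Cd3g, Cd8a, Cd8b1, Lck and Cd2 were below their highest level on the LFC arrays.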
